A study of Mus musculus with 24 samples.

Results

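The genes of the basement membrane, its laminin chains, collagen IV chains, nidogens, perlecan and SPARC, were followed across mouse embryonic stem (ES) cells in which Cdk8 or Med12 had been knocked down. The set was 10 genes fixed by name: Lama1, Lama5, Lamb1, Lamc1, Col4a1, Col4a2, Nid1, Nid2, Hspg2 and Sparc. Every probe whose accession mapped to one of these symbols was taken, which gave 11 of the 41174 probes and 8 of the 10 genes. Lama1, Lamb1, Lamc1, Nid1 and Nid2 had 1 probe each, and Col4a1, Col4a2 and Sparc had 2 each. No probe matched Lama5 or Hspg2, and both are not analysed here. All 11 probes were kept by the filter on dim spots and were well above background in the cells' channel on all 24 arrays.

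R1 cells, an established mouse ES line, were infected with lentivirus that carried a short hairpin RNA, and RNA was taken 8 or 13 days later. On day 13 the groups were shMed12-1, shMed12-2, shCdk8-1, shCdk8-2 and shNTC, and on day 8 they were shCdk8-1, shCdk8-2 and shNTC, with 3 replicates called biological in each of the 8 groups. Cells of the shNTC groups also carried lentivirus and a hairpin, and no uninfected cells were included. The labels do not say whether replicates came from separate infections, so the p-values below reflect variation among these samples, which may be technical. Each array compared the cells, in Cy5, with a universal mouse reference RNA pooled from several cell lines, in Cy3. A level below is the log2 ratio of cells to reference, which can be set against other groups for the same probe but not against other probes. A fold change is a difference of mean log2 ratios.

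Basement membranes are thin sheets of matrix under epithelia, in which a laminin network and a collagen IV network are joined by nidogens and by perlecan, the product of Hspg2. Laminins are trimers of an alpha, a beta and a gamma chain, and Lama1, Lamb1 and Lamc1 encode the chains of the main laminin of the early embryo. In the mouse blastocyst such matrix is laid down largely by primitive endoderm and its parietal descendant, while undifferentiated ES cells make laminin chains as well. CDK8 is a kinase and MED12 the subunit that activates it, both in a module of Mediator, which links transcription factors to RNA polymerase II.

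The share of spots well above background ran from 48.9% to 76.1% over the arrays, and no spot was saturated. The targeted transcripts were lower where they were targeted: Cdk8 by 0.31 to 0.95 with its hairpins and Med12 by 0.88 to 1.0. On day 8 Med12 was also higher with shCdk8-1 and shCdk8-2, by 0.25 and 0.34 (adjusted p = 0.030 and 0.0053 in limma). Neither Med12 difference passed on day 13. On 2 arrays, shMed12-1 day 13 replicate 3 and shCdk8-1 day 8 replicate 1, the background fit stood apart, with a Cy5 background spread of 42.8 to 88.5 against 1.47 to 3.14 on the other 22. Log ratios there were pulled toward 0, with a slope of 0.824 to 0.832 on the other replicates of their group, against 0.975 to 1.10 elsewhere. With the background refitted from the parameters of the other arrays, the slopes became 0.975 to 1.01. Values after this refit are given wherever they change a call below. In bulk RNA, fewer cells of a type and less RNA per cell cannot be told apart.

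On day 8 Col4a1, Col4a2 and Sparc were lower with both Cdk8 hairpins, more so with shCdk8-2, and Nid1 and Lamb1 were lower with shCdk8-2. With shCdk8-2, 5 of the 8 measured members fell (Col4a1, Col4a2, Sparc, Nid1 and Lamb1), while 6.52% of all 23147 genes tested fell. With shCdk8-1, 3 of 8 fell (Col4a1, Col4a2 and Sparc), while 8.15% of all genes fell. Called means an adjusted p under 0.05 in limma, with Benjamini-Hochberg adjustment over all genes. All genes are the 23147 entries tested: 13742 genes with a symbol, and probes without a symbol, each counted on its own. The median fold change of the 8 members was -0.72 with shCdk8-2 and -0.23 with shCdk8-1, and medians over all genes lay between -0.0029 and 0.0071 in every comparison.

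On day 13 the members called with a Cdk8 hairpin moved in both directions, and so did those called with a Med12 hairpin. With shCdk8-1, Col4a1 and Nid1 fell, 2 of 8 against 5.99% of all genes, and Sparc rose, 1 of 8 against 6.38%. With shCdk8-2, Col4a1 fell, 1 of 8 against 5.58%, and Lamc1 rose, 1 of 8 against 5.81%. With shMed12-1, Sparc, Col4a2 and Col4a1 rose, 3 of 8 against 12.6%, and Lama1 fell, 1 of 8 against 11.8%. With shMed12-2, Sparc and Lamb1 rose, 2 of 8 against 8.94%, and Lama1 and Nid1 fell, 2 of 8 against 8.68%. Several of these counts are 1 of 8, a share close to the background. The comparisons of a day share their shNTC arrays, so they are not independent of each other.

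These counts depend on the processing. After the refit 4 and 6 members were called with shCdk8-1 and shCdk8-2 on day 8 (21.5% and 20.3% of all genes), 5 and 4 on day 13 (18.2% and 17.3%), and 4 with each of shMed12-1 and shMed12-2 (26.6% and 24%). With the slide fitted as a block they were 1 and 4 on day 8 (3.61% and 6.01% of all genes), 1 and 1 on day 13 (3.75% and 5.48%), and 3 and 3 with the Med12 hairpins (6.66% and 12.5%). With each array centred on its median in place of loess they were 0 and 3 on day 8 (3.66% and 1.39% of all genes), 0 and 0 on day 13 (1.53% and 0.899%), and 4 and 2 with the Med12 hairpins (5.87% and 4.93%).

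**Figure D1:**
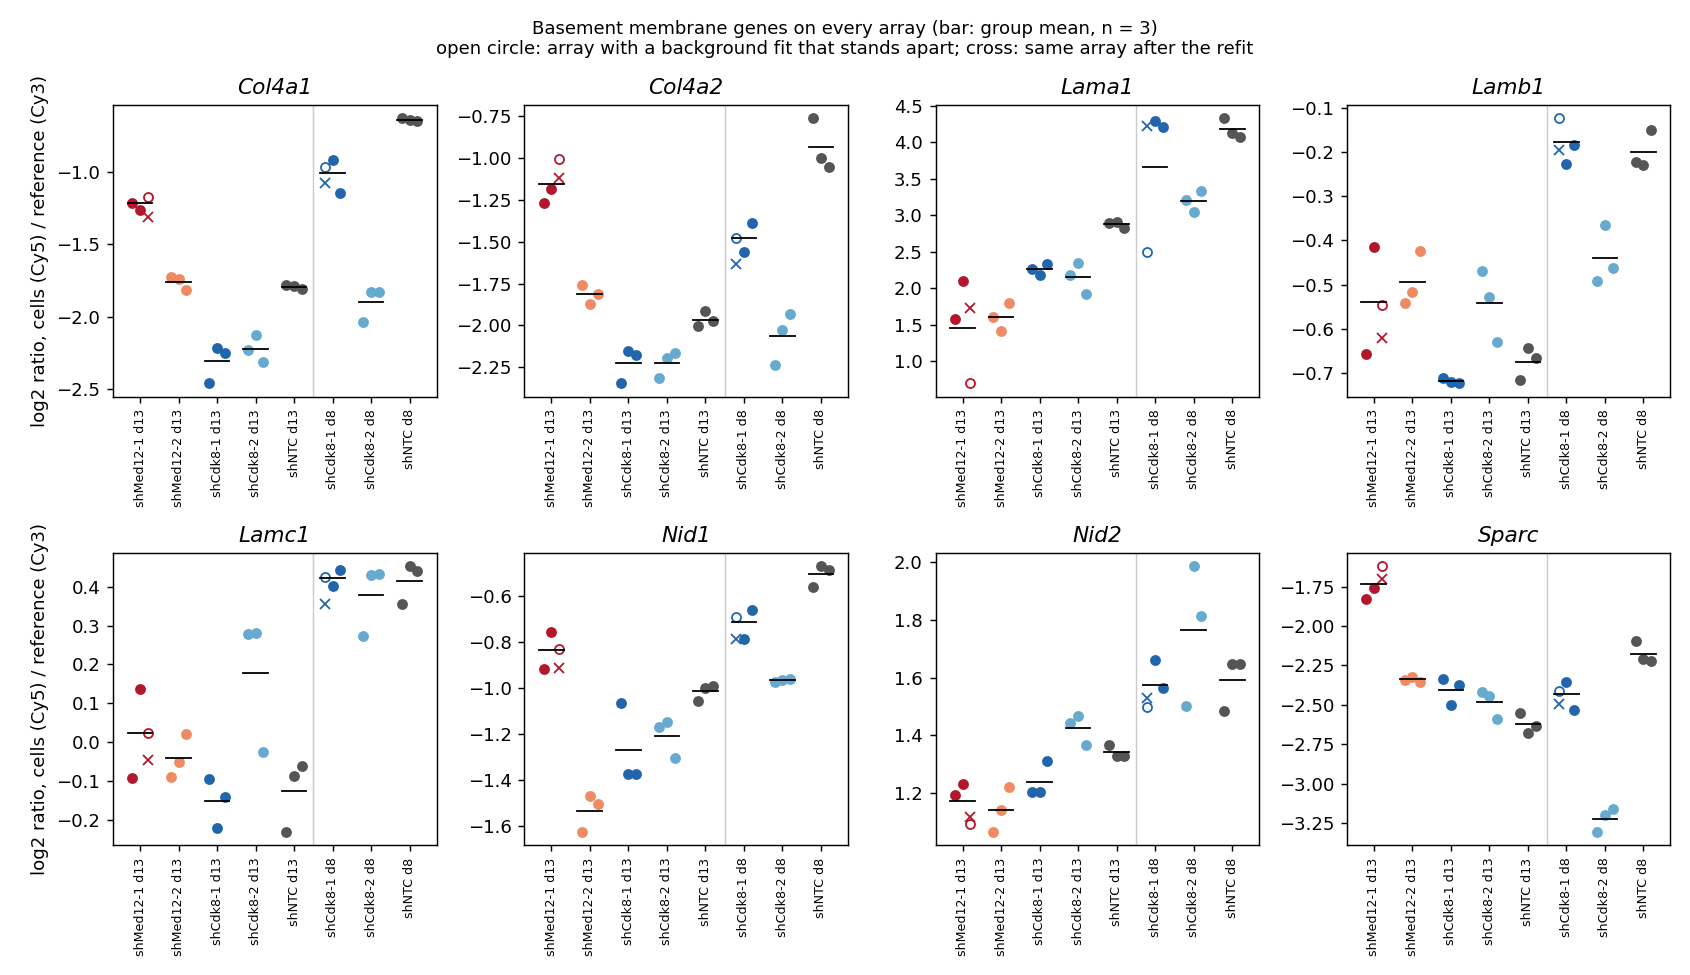
Log2 ratio of cells to reference on each of the 24 arrays for the 8 measured members, with a bar at each group's mean of 3 arrays and the day 13 groups left of the day 8 groups. Open circles mark the arrays whose background fit stood apart and crosses show them after the refit, where Lama1 on the shCdk8-1 array stands at 4.22 in place of 2.50. For Col4a1 all day 13 shMed12-1 arrays lie above all shNTC arrays of that day and all Cdk8 knockdown arrays lie below them.

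Col4a1 and Col4a2 encode both chains of the most widespread collagen IV. Their genes lie head to head on mouse chromosome 8, and their start regions are shown because both genes moved together in these cells. In the RefSeq promoter table (assembly GRCm38.p6, 250 bases before to 50 after a start), the start sites are 21 bases apart and the windows share 78 bases, chr8:11312777-11312854. Capitals mark GGGCGG, the core of the GC box, and CCAAT, the CCAAT box, on either strand, and the 2 motifs do not overlap in these windows.
Col4a1, chr8:11312777-11313076, minus strand: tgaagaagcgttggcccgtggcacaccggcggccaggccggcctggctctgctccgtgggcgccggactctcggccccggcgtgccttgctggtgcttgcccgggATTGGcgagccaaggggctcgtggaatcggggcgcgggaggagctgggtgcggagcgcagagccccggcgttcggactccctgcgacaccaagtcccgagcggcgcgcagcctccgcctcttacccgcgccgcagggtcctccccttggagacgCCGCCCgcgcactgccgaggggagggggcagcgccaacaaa
Col4a2, chr8:11312555-11312854, plus strand: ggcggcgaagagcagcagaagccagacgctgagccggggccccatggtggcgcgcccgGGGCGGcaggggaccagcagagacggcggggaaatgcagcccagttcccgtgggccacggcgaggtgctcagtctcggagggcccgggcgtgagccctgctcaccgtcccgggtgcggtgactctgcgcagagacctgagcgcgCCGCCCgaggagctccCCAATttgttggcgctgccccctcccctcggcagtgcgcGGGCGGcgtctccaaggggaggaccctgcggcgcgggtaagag
The Col4a1 window holds 1 GC box and 1 CCAAT box, and the Col4a2 window holds 3 GC boxes and 1 CCAAT box. The GC box of the Col4a1 window lies in the shared 78 bases and is the same site as 1 of the 3 in the Col4a2 window. Among all 32851 windows of 300 bases in the table, 35.7% hold GGGCGG and 37.4% hold CCAAT on either strand. The GC content is 74.0% and 73.7% in the Col4a1 and Col4a2 windows, against a median of 52.7% over all windows. Neither window holds the TATA box letters TATAAA (13.6% of all windows), the GATA motif AGATAA (11.2%), the SOX motif ACAAAG (18.7%) or the E-box CACGTG (7.2%). These matches describe letters in the window and no binding was measured.

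On day 8 Col4a1 was at -0.96, -0.92 and -1.14 in shCdk8-1 cells, -2.04, -1.83 and -1.83 in shCdk8-2 cells and -0.62, -0.64 and -0.65 in shNTC cells. The 3 groups did not overlap: shNTC was highest, shCdk8-1 next and shCdk8-2 lowest. Col4a1 fell by 0.37 (SE 0.07, adjusted p = 0.0013) with shCdk8-1 and by 1.26 (SE 0.07, adjusted p = 7.6e-10) with shCdk8-2. Both calls held with slide as a blocking term (adjusted p = 0.047 and 3.2e-05). On the slide that held arrays of both groups the difference of shCdk8-2 from shNTC was -1.20, and shCdk8-1 and shNTC shared no slide.

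Col4a2 followed the same order on day 8. Its levels were -1.48, -1.56 and -1.39 in shCdk8-1 cells, -2.24, -2.03 and -1.93 in shCdk8-2 cells and -0.76, -1.0 and -1.05 in shNTC cells, without overlap. It fell by 0.54 (SE 0.09, adjusted p = 2.4e-04) with shCdk8-1 and by 1.13 (SE 0.09, adjusted p = 3.1e-08) with shCdk8-2. With slide as a blocking term the shCdk8-1 value was -0.50 and just missed the threshold (adjusted p = 0.0501). The within-slide difference for shCdk8-2 was -1.17.

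On day 13 Col4a1 was at -1.21, -1.26 and -1.17 in shMed12-1 cells, -1.73, -1.74 and -1.81 in shMed12-2 cells, -2.46, -2.22 and -2.25 in shCdk8-1 cells, -2.23, -2.13 and -2.31 in shCdk8-2 cells and -1.78, -1.79 and -1.81 in shNTC cells. All shMed12-1 arrays were above and all Cdk8 knockdown arrays below every shNTC array, while shMed12-2 overlapped shNTC. Col4a1 rose by 0.58 (SE 0.07, adjusted p = 6.2e-06) with shMed12-1 and differed by 0.03 (95% interval -0.12 to 0.18, adjusted p = 0.83) with shMed12-2. It fell by 0.52 (adjusted p = 5.1e-05) with shCdk8-1 and by 0.43 (adjusted p = 4.4e-04) with shCdk8-2. On the shared slide shCdk8-2 differed from shNTC by -0.54, and all 3 calls held with slide as a blocking term. Neither shMed12-1 nor shCdk8-1 shared a slide with shNTC on day 13.

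The day 13 levels of Col4a2 were -1.27, -1.19 and -1.01 in shMed12-1 cells, -1.76, -1.87 and -1.82 in shMed12-2 cells, -2.34, -2.15 and -2.18 in shCdk8-1 cells, -2.31, -2.20 and -2.16 in shCdk8-2 cells and -2.0, -1.91 and -1.98 in shNTC cells. Both Med12 groups lay above shNTC and both Cdk8 groups below it, on every array. Only the shMed12-1 difference passed the test, at 0.81 (SE 0.09, adjusted p = 9.3e-07). The values were 0.15 with shMed12-2 (adjusted p = 0.29), -0.26 with shCdk8-1 (adjusted p = 0.057) and -0.26 with shCdk8-2 (adjusted p = 0.061). After the refitted background both Cdk8 values, unchanged in size, were called (adjusted p = 0.033 and 0.035).

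Across the 24 arrays the log2 ratios of Col4a1 and Col4a2 had a Pearson correlation of 0.940, the highest among the 28 pairs of members. This is a description over 8 groups that share arrays, slides and scaling. Ordered by mean from the lowest, Col4a1 was at -2.31 ± 0.13 (SD, n = 3 in each group) in shCdk8-1 and -2.22 ± 0.09 in shCdk8-2 cells on day 13, and at -1.90 ± 0.12 in shCdk8-2 cells on day 8. It was at -1.79 ± 0.02 in shNTC and -1.76 ± 0.05 in shMed12-2 cells on day 13, at -1.21 ± 0.05 in shMed12-1 cells, and highest on day 8 in shCdk8-1 (-1.01 ± 0.12) and shNTC cells (-0.64 ± 0.01). The day 13 Cdk8 groups overlapped each other, as did shMed12-2 and shNTC on day 13, and neither pair differed beyond its spread.

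SPARC is a secreted glycoprotein that binds collagen IV and is made in quantity by mouse parietal endoderm. Its promoter window is shown because it differs from those of the collagen IV genes: it holds none of the 6 motifs searched and its GC content is 55.3%. The windows of Lamb1 and Nid1, not printed here, also hold both the GC box and the CCAAT box, with a GC content of 63.7% and 64.7%.
Sparc, chr11:55420031-55420330, minus strand: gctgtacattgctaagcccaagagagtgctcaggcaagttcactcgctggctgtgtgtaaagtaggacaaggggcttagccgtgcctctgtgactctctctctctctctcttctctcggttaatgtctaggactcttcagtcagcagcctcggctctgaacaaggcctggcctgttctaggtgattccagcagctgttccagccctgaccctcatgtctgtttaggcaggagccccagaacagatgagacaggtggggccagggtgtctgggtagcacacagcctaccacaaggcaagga
On day 8 Sparc was at -2.41, -2.35 and -2.53 in shCdk8-1 cells, -3.30, -3.20 and -3.16 in shCdk8-2 cells and -2.10, -2.21 and -2.22 in shNTC cells. On this brighter Sparc probe the shCdk8-2 arrays were the lowest of all 24 arrays, and both knockdown groups lay below shNTC. On the second probe the day 8 shCdk8-2 arrays overlapped those of shNTC on day 13, with means of -3.04 and -2.97. Sparc fell by 1.05 (SE 0.07, adjusted p = 2.5e-09) with shCdk8-2 and by 0.26 (SE 0.07, adjusted p = 0.012) with shCdk8-1. With slide as a blocking term the shCdk8-1 value of -0.23 was not called (adjusted p = 0.36), nor was it without shCdk8-1 replicate 3 or shNTC replicate 1 (adjusted p = 0.060 to 0.068).

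On day 13 the order of the Sparc groups was different. Sparc was at -1.83, -1.76 and -1.62 in shMed12-1 cells, -2.34, -2.32 and -2.35 in shMed12-2 cells, -2.34, -2.50 and -2.37 in shCdk8-1 cells, -2.42, -2.44 and -2.59 in shCdk8-2 cells and -2.55, -2.68 and -2.63 in shNTC cells. Both Med12 groups and shCdk8-1 lay above shNTC on every array, and shCdk8-2 overlapped it. Sparc rose by 0.89 (SE 0.07, adjusted p = 7.4e-09) with shMed12-1 and by 0.28 (adjusted p = 0.0050) with shMed12-2. On the slides that held both groups the shMed12-2 difference was 0.34 and 0.31. It rose by 0.22 (adjusted p = 0.037) with shCdk8-1, a call lost with slide as a blocking term (adjusted p = 0.30) and without shCdk8-1 replicate 1 or 3 or shNTC replicate 2 or 3 (adjusted p = 0.10 to 0.14), and differed by 0.14 (adjusted p = 0.23) with shCdk8-2.

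The second probes of Col4a1, Col4a2 and Sparc were used as a check on the same RNA. In the fit over all 28253 complete probes, the second Col4a1 probe gave -0.49 and -1.10 with shCdk8-1 and shCdk8-2 on day 8, -0.55 and -0.52 on day 13, 0.42 with shMed12-1 and -0.17 with shMed12-2. That of Col4a2 gave -0.44, -1.11, -0.31, -0.30, 0.74 and 0.07 in the same order. Every call of the brighter probe in the knockdown comparisons had the same sign and passed the test with the second probe for both collagen IV genes, and the Col4a2 value with shCdk8-1 on day 13 was called as well (adjusted p = 0.048). The 2 Sparc probes differed more in size: the second gave -0.36 and -0.59 on day 8, 0.08 and 0.21 on day 13, 0.53 with shMed12-1 and 0.28 with shMed12-2. Its day 13 value with shCdk8-1 was not called (adjusted p = 0.66).

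**Figure D2:**
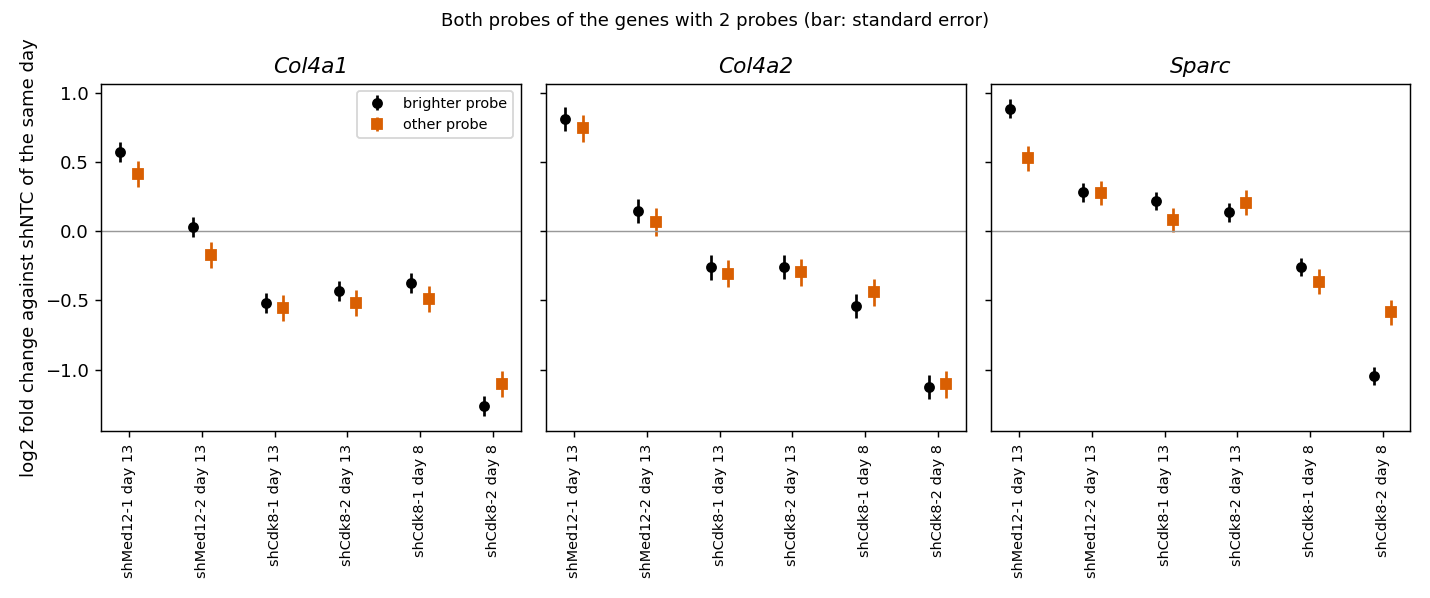
Log2 fold change against shNTC of the same day for both probes of Col4a1, Col4a2 and Sparc in the 6 knockdown comparisons, with the standard error of the fit over all probes as bars. Both probes of the collagen IV genes lie close together, while with shCdk8-2 on day 8 the Sparc probes gave -1.05 and -0.59.

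Lama1 encodes the laminin alpha 1 chain, and it was lower in all 4 day 13 knockdown groups than in shNTC cells. On day 13 its levels were 1.58, 2.10 and 0.70 in shMed12-1 cells, 1.62, 1.42 and 1.80 in shMed12-2 cells, 2.26, 2.18 and 2.34 in shCdk8-1 cells, 2.19, 2.35 and 1.92 in shCdk8-2 cells and 2.90, 2.91 and 2.82 in shNTC cells. The knockdown arrays all lay below the shNTC arrays, and the lowest one, 0.70, was the shMed12-1 array whose background fit stood apart, at 1.73 after the refit. Lama1 fell by 1.42 (SE 0.34, adjusted p = 0.0041) with shMed12-1 and by 1.27 (adjusted p = 0.011) with shMed12-2. With slide as a blocking term the shMed12-2 call held (adjusted p = 0.035) and the shMed12-1 call did not (adjusted p = 0.12). Within the shared slides shMed12-2 differed from shNTC by -1.30 and -1.40.

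The spread of Lama1 was the widest of the members, with a standard error of 0.34 for each knockdown against 0.06 to 0.09 for the other 7. Its reference signal was well above background on 2 of 24 arrays, so its ratio rests on a dim reference, while the cells' own signal ran from 226.5 to 1780 intensity units. The day 13 values with the Cdk8 hairpins, -0.62 with shCdk8-1 and -0.73 with shCdk8-2, were not called (adjusted p = 0.28 and 0.20). After the refitted background they kept their size and were called (adjusted p = 6.6e-04 and 1.6e-04), and the shMed12-1 value was -1.07 (adjusted p = 4.1e-07).

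On day 8 Lama1 was at 2.50, 4.29 and 4.20 in shCdk8-1 cells, 3.22, 3.04 and 3.33 in shCdk8-2 cells and 4.33, 4.13 and 4.07 in shNTC cells. The value of 2.50 is that of the other array that stood apart and became 4.22 after the refit. The shCdk8-2 arrays lay below every shNTC array, at -0.98 (adjusted p = 0.058), which was called after the refit (adjusted p = 3.8e-06). For shCdk8-1 the difference was -0.52 (adjusted p = 0.34) with that array as it stood and 0.06 (adjusted p = 0.80) after the refit, so 1 array set its sign.

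Lamb1 and Lamc1, the beta and gamma chains that assemble with the alpha chain, moved little with knockdown. On day 8 Lamb1 was at -0.12, -0.23 and -0.18 in shCdk8-1 cells, -0.49, -0.37 and -0.46 in shCdk8-2 cells and -0.22, -0.23 and -0.15 in shNTC cells, and shCdk8-2 lay below the other groups. It fell by 0.24 (SE 0.06, adjusted p = 0.0097) with shCdk8-2, was not called with slide as a blocking term (adjusted p = 0.20) or without shNTC replicate 3 (adjusted p = 0.052), and differed by 0.02 (adjusted p = 0.85) with shCdk8-1. On day 13 it was at -0.66, -0.42 and -0.55 in shMed12-1 cells, -0.54, -0.52 and -0.42 in shMed12-2 cells, -0.71, -0.72 and -0.72 in shCdk8-1 cells, -0.47, -0.53 and -0.63 in shCdk8-2 cells and -0.72, -0.64 and -0.67 in shNTC cells. The rise of 0.18 with shMed12-2 was called (adjusted p = 0.039) but was lost with slide as a blocking term (0.14, adjusted p = 0.24) and when any 1 of the 6 arrays compared was left out (adjusted p = 0.051 to 0.17).

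Lamc1 was within its shNTC range or close to it in most knockdown groups. On day 13 its levels were -0.09, 0.14 and 0.02 in shMed12-1 cells, -0.09, -0.05 and 0.02 in shMed12-2 cells, -0.10, -0.22 and -0.14 in shCdk8-1 cells, 0.28, 0.28 and -0.02 in shCdk8-2 cells and -0.23, -0.09 and -0.06 in shNTC cells. The shCdk8-2 arrays all lay above shNTC, at a rise of 0.30 (SE 0.08, adjusted p = 0.013) that was not called with slide as a blocking term (adjusted p = 0.066). It was also lost without shCdk8-2 replicate 1 or 2 or shNTC replicate 1 (adjusted p = 0.073 to 0.084). The other 5 knockdown comparisons gave Lamc1 values from -0.04 to 0.15, none called. Lamb1 and Lamc1 had a correlation of 0.881 over the 24 arrays, the next highest among members.

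The nidogens link the laminin network to collagen IV, and the 2 genes differed. Nid1 on day 8 was at -0.69, -0.79 and -0.66 in shCdk8-1 cells, -0.97, -0.97 and -0.96 in shCdk8-2 cells and -0.56, -0.47 and -0.48 in shNTC cells, the same order as Col4a1 without overlap. It fell by 0.46 (SE 0.07, adjusted p = 1.9e-04) with shCdk8-2 and was at -0.21 (adjusted p = 0.054) with shCdk8-1, which became -0.24 (adjusted p = 0.020) after the refit. On day 13 Nid1 was at -0.92, -0.76 and -0.83 in shMed12-1 cells, -1.63, -1.47 and -1.51 in shMed12-2 cells, -1.07, -1.37 and -1.38 in shCdk8-1 cells, -1.17, -1.15 and -1.30 in shCdk8-2 cells and -1.06, -1.0 and -0.99 in shNTC cells. The shMed12-1 arrays were above and all other knockdown arrays below every shNTC array.

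Nid1 fell by 0.52 (SE 0.07, adjusted p = 2.3e-05) with shMed12-2, a call that held with slide as a blocking term (adjusted p = 1.3e-04), with -0.63 and -0.48 on the shared slides. With shMed12-1 it was at 0.18 and not called (adjusted p = 0.074). It fell by 0.26 with shCdk8-1 (adjusted p = 0.021, not called with slide as a blocking term at 0.27, nor without shCdk8-1 replicate 2 or 3 or shNTC replicate 2 or 3 at 0.067 to 0.12) and was at -0.19 with shCdk8-2 (adjusted p = 0.093). Nid2 was not called in any of the 6 knockdown comparisons, with values from -0.20 to 0.17 and standard errors of 0.09. Its 95% interval was -0.01 to 0.35 with shCdk8-2 on day 8 and -0.38 to -0.02 with shMed12-2, so these comparisons leave room for a change of that size.

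**Figure D3:**
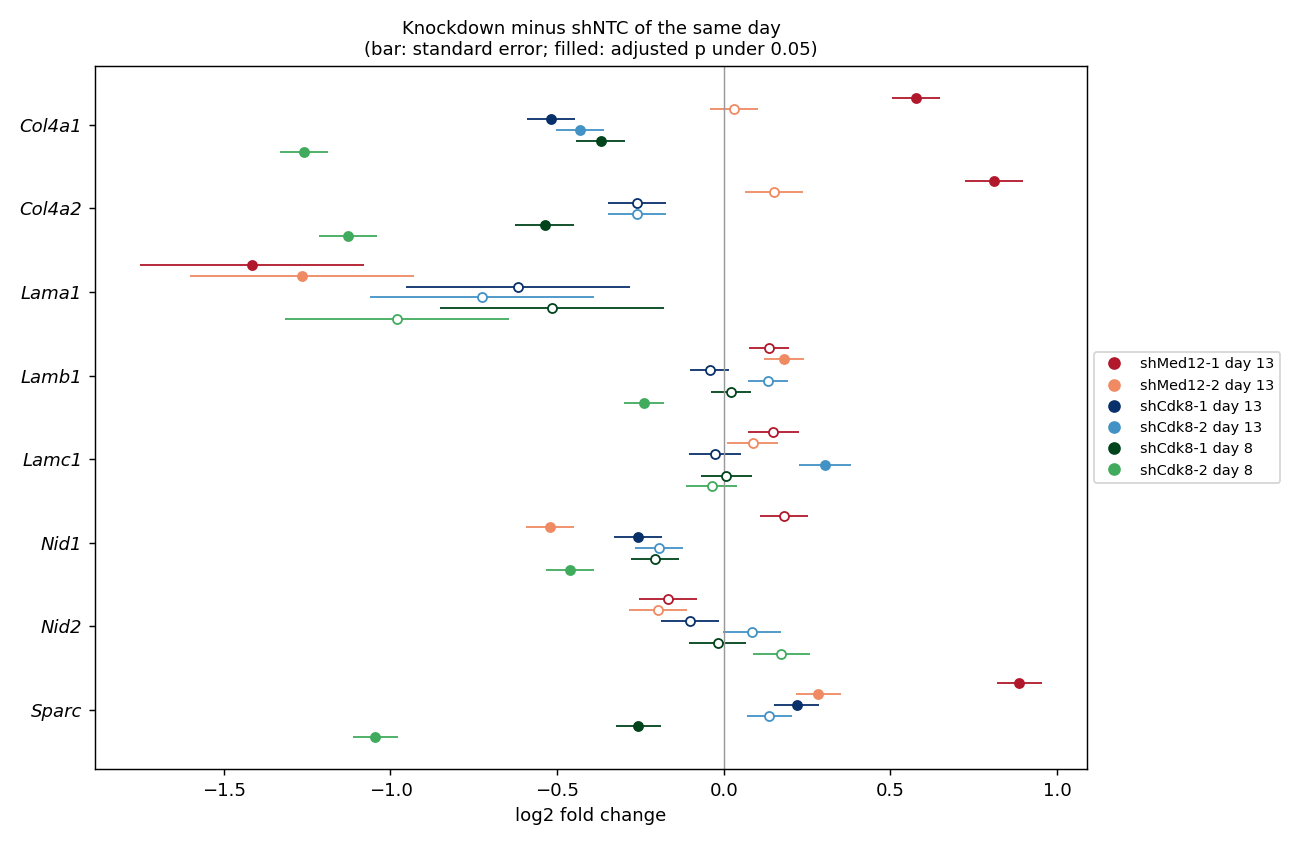
Log2 fold change of the 8 members in the 6 comparisons of a knockdown with shNTC of its day, with standard errors as bars and filled points for an adjusted p under 0.05. The collagen IV genes and Sparc spread from about -1.26 with shCdk8-2 on day 8 up to 0.89 with shMed12-1, while Lamb1, Lamc1 and Nid2 stay within 0.31 of 0.

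Between day 8 and day 13 most members fell in shCdk8-1 and shNTC cells, and fewer did in shCdk8-2 cells. In shCdk8-1 cells 7 of 8 members were lower on day 13, against 12.8% of all genes. In shCdk8-2 cells 4 of 8 were lower, against 15.1%, and Sparc was higher, 1 of 8 against 12%. In shNTC cells 7 of 8 were lower, against 9.22%.

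Col4a1 fell by 1.30 (adjusted p = 5.0e-11) in shCdk8-1 cells and by 0.33 (adjusted p = 0.0018) in shCdk8-2 cells, where it was already low on day 8. In shNTC cells it fell by 1.15 (SE 0.07, adjusted p = 9.2e-10), with -1.16 and -1.17 on the 2 slides that held both days. The same differences of Col4a1 were -1.26 and -1.33 for shCdk8-1 and -0.09 and -0.49 for shCdk8-2, each on 2 slides. Col4a2 fell by 0.75 (adjusted p = 2.2e-06) in shCdk8-1 cells, was at -0.16 (adjusted p = 0.20) in shCdk8-2 cells and fell by 1.03 (adjusted p = 6.9e-08) in shNTC cells. Lama1 fell by 1.40 in shCdk8-1, 1.04 in shCdk8-2 and 1.30 in shNTC cells (adjusted p = 0.0040, 0.025 and 0.0098). The shCdk8-2 call was lost without replicate 1 or 3 of either day (adjusted p = 0.057 to 0.085), and with slide as a blocking term the shCdk8-2 and shNTC values were -1.01 and -1.23 and no longer passed (adjusted p = 0.080 and 0.051). With the refit the shCdk8-1 value was -1.97 (adjusted p = 1.9e-11).

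The beta and gamma chains moved together. Lamb1 and Lamc1 fell by 0.54 and 0.57 in shCdk8-1 cells (adjusted p = 1.1e-06 and 1.2e-05) and by 0.47 and 0.54 in shNTC cells (adjusted p = 1.0e-05 and 4.3e-05). In shCdk8-2 cells they were at -0.10 and -0.20, not called (adjusted p = 0.23 and 0.060), and Lamc1 passed after the refit with its value unchanged (adjusted p = 0.048). Nid1 fell by 0.56 in shCdk8-1, 0.24 in shCdk8-2 and 0.51 in shNTC cells (adjusted p = 7.2e-06, 0.016 and 3.9e-05), and the shCdk8-2 call was lost without day 13 replicate 3 (adjusted p = 0.081). Nid2 fell by 0.33 and 0.34 in the shCdk8-1 and shCdk8-2 cells (adjusted p = 0.0070 and 0.0056) and was at -0.25 in shNTC cells (adjusted p = 0.051, or 0.031 after the refit). On slides that held both days, Nid2 differed by -0.30 and -0.35 in shCdk8-1 cells and by -0.03 and -0.62 in shCdk8-2 cells.

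Sparc departed from the other members: it was at 0.03 (adjusted p = 0.80) in shCdk8-1 cells, rose by 0.74 (adjusted p = 7.3e-08) in shCdk8-2 cells and fell by 0.45 (adjusted p = 8.0e-05) in shNTC cells. The second Sparc probe gave -0.07, 0.28 and -0.52 in these groups (adjusted p = 0.64, 0.027 and 3.4e-04).

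**Figure D4:**
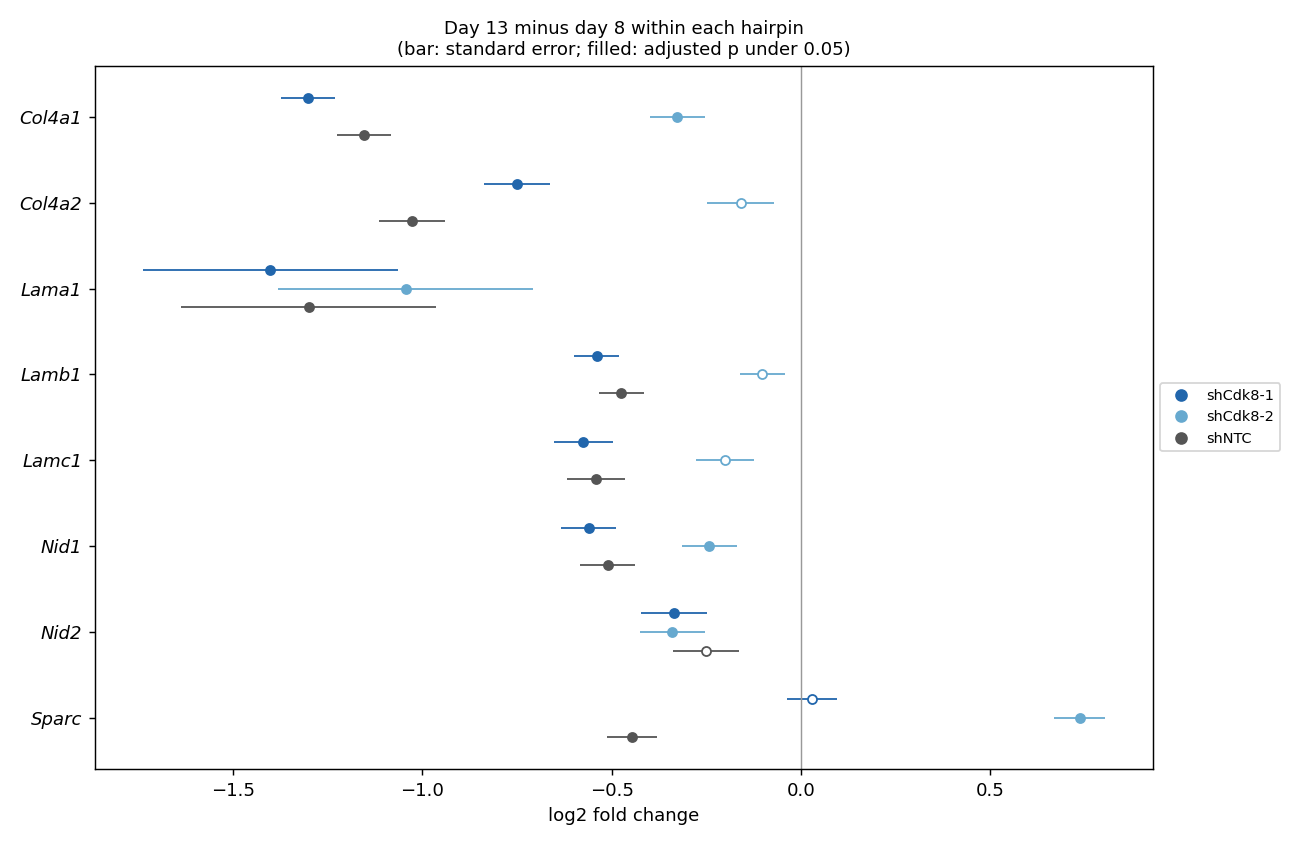
Log2 fold change between day 13 and day 8 for the 8 members in shCdk8-1, shCdk8-2 and shNTC cells, with standard errors as bars and filled points for an adjusted p under 0.05. Sparc rose by 0.74 in shCdk8-2 cells and fell by 0.45 in shNTC cells, and Col4a1 fell by 0.33 in shCdk8-2 cells against 1.15 in shNTC cells.

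The difference between the Cdk8 effect on day 13 and that on day 8 was tested itself, as a contrast of both hairpins' mean against shNTC. It was called for Sparc, Col4a2 and Col4a1, 3 of 8 members and all upward, against 1.43% of all genes upward. The change was 0.83 for Sparc (SE 0.08, adjusted p = 5.1e-06), 0.57 for Col4a2 (SE 0.11, adjusted p = 0.0045) and 0.34 for Col4a1 (SE 0.09, adjusted p = 0.046). The Col4a1 change was not called with slide as a blocking term (adjusted p = 0.15), or in 12 of 18 fits that each left out 1 array, among them each without an shNTC array (adjusted p = 0.065 to 0.12). The second probes gave 0.62 for Sparc (adjusted p = 0.0031), 0.47 for Col4a2 (0.047) and 0.26 for Col4a1 (0.34).

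The change was larger with shCdk8-2 than with shCdk8-1, a difference between hairpins that was not itself tested. The shCdk8-2 effect moved upward for Sparc, Col4a2, Col4a1 and Lamb1, 4 of 8 members against 2.86% of all genes, by 1.18, 0.87, 0.83 and 0.37 (adjusted p = 2.1e-07, 2.2e-04, 4.4e-05 and 0.011). The Lamb1 call was lost with slide as a blocking term (0.30, adjusted p = 0.17), and Lamc1, at 0.34 (adjusted p = 0.077), passed after the refit (adjusted p = 0.049). With shCdk8-1, 1 of 8 members was called upward, Sparc at 0.48 (adjusted p = 0.021), against 0.389% of all genes. That call was lost with slide as a blocking term (adjusted p = 0.38) and in 6 of 12 fits without 1 array: shCdk8-1 day 13 replicate 1 or 3, shCdk8-1 day 8 replicate 3, shNTC day 13 replicate 2 or 3, or shNTC day 8 replicate 1 (adjusted p = 0.065 to 0.084). For Col4a1 the shCdk8-1 change between days was -0.15 (adjusted p = 0.80). That of Lama1 was -0.10 (adjusted p = 0.98) and became -0.67 (adjusted p = 0.039) after the refit.

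Averaged over hairpins, knockdown of the kinase and of its activating subunit gave different levels of the collagen IV genes and Sparc on day 13. With both Cdk8 hairpins averaged against both Med12 hairpins, 3 of 8 members were lower with Cdk8 knockdown, against 9.5% of all genes. The difference was -0.78 for Col4a1 (SE 0.05, adjusted p = 1.1e-09), -0.74 for Col4a2 (SE 0.06, adjusted p = 4.1e-08) and -0.41 for Sparc (SE 0.05, adjusted p = 3.4e-06). All 3 held with slide as a blocking term and without any 1 array. For Sparc the shMed12-2 arrays nevertheless overlapped those of shCdk8-1, with means of -2.34 and -2.40. Single Cdk8 and Med12 hairpins were not tested against each other. Lama1 was at 0.67 (adjusted p = 0.057), and after the refit it was higher with Cdk8 knockdown by 0.50 (adjusted p = 1.1e-04). Nid2, at 0.17 (adjusted p = 0.054), also passed after the refit (adjusted p = 0.040), while Lamb1 (-0.11), Lamc1 (0.02) and Nid1 (-0.06) were not called.

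Hairpins against the same transcript gave different levels of these genes. On day 8, 5 of 8 members were higher with shCdk8-1 than with shCdk8-2, against 8.39% of all genes: Col4a1 by 0.89, Sparc by 0.79, Col4a2 by 0.59, Lamb1 by 0.26 and Nid1 by 0.25 (adjusted p = 5.2e-08, 9.8e-08, 9.3e-05, 0.0043 and 0.018). The Lamb1 and Nid1 calls were lost with slide as a blocking term (adjusted p = 0.48 and 0.10), and that of Nid1 also without shCdk8-1 replicate 1 or 3 or shCdk8-2 replicate 2 (adjusted p = 0.051 to 0.056). Lama1 was at 0.47 (adjusted p = 0.38) and was higher with shCdk8-1 by 1.04 (adjusted p = 1.3e-06) after the refit. On day 13, 1 of 8 was lower with shCdk8-1 than with shCdk8-2, Lamc1 by 0.33 (adjusted p = 0.0071), against 5.5% of all genes, and the collagen IV genes differed by -0.09 and 0.00 (95% intervals -0.24 to 0.07 and -0.18 to 0.18). Lamb1 was at -0.18 there (adjusted p = 0.063) and passed after the refit (adjusted p = 0.045). Between the Med12 hairpins, 4 of 8 members were higher with shMed12-1 than with shMed12-2, against 11% of all genes. These were Nid1 by 0.70, Col4a2 by 0.66, Sparc by 0.60 and Col4a1 by 0.54 (adjusted p = 5.6e-07, 1.4e-05, 1.6e-06 and 1.3e-05), and all 4 held with slide as a blocking term. The Med12 hairpins shared no slide, nor did the Cdk8 hairpins on either day. Their values with slide as a blocking term therefore rest on slides shared with other groups. The second Sparc probe gave 0.22 between the Cdk8 hairpins on day 8 and 0.25 between the Med12 hairpins. Neither passed in the fit over all probes (adjusted p = 0.10 and 0.054), while the second collagen IV probes passed in both comparisons. The fall of Cdk8 itself on day 8 was 0.71 with shCdk8-1 and 0.31 with shCdk8-2, so the hairpin with the smaller fall of Cdk8 had the larger falls of these members.

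Other genes of the basement membrane pathway were read from 5 lists that share no gene with the members, with the shares of all genes given above as the background. On day 8 the shares of all genes that rose were 8.48% with shCdk8-1 and 7.25% with shCdk8-2. Of 30 other basement membrane genes, 19 were tested. With shMed12-1, 5 of 19 rose (median 0.19), and with the other hairpins 2 or 3 of 19 rose and up to 2 fell. Lamb3, a laminin beta chain of epithelia, rose by 0.56 (adjusted p = 0.010, or 0.14 with slide as a blocking term) with shMed12-1. Tinagl1, a matrix protein related to tubulointerstitial nephritis antigen, rose by 1.02 (adjusted p = 2.0e-06) with shMed12-1. Fras1, a protein of epithelial basement membranes, rose by 0.65 (adjusted p = 2.4e-06) with shMed12-2.

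Among the enzymes and chaperones of collagen synthesis and crosslinking, 8 of 17 tested rose with shMed12-1 (median 0.21), against 2 higher and 2 lower with shMed12-2, 3 higher and 1 lower with shCdk8-2 and 2 higher and 1 lower with shCdk8-1 on day 13. On day 8, 1 of 17 rose and 1 fell with each Cdk8 hairpin. Serpinh1, the collagen chaperone HSP47, rose by 0.86 (adjusted p = 1.2e-08) with shMed12-1. P4ha2, a prolyl hydroxylase subunit that acts on collagen chains, fell by 0.90 (adjusted p = 1.7e-08) with shCdk8-2 on day 8. Lox, a collagen crosslinking oxidase, rose by 0.80 (adjusted p = 0.019, or 0.24 with slide as a blocking term) with shMed12-1, with a value of 0.46 after the refit, and Fkbp10, a collagen chaperone, rose by 0.53 (adjusted p = 1.0e-05) with shCdk8-2 on day 13.

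Proteases that act on matrix, and their inhibitors, rose with shMed12-1 in 10 of 15 tested genes and fell in 1 (median 0.59, or 0.44 after the refit). With shMed12-2, 4 rose and 1 fell, and on day 13 3 rose and 1 fell with shCdk8-1 and 1 rose with shCdk8-2. On day 8, 5 of 15 fell with shCdk8-2, while 2 rose and 4 fell with shCdk8-1. Bmp1, a procollagen proteinase, rose by 1.44 (adjusted p = 1.3e-08) and Timp3, a metalloproteinase inhibitor, by 0.99 (adjusted p = 2.4e-07) with shMed12-1. Htra1, a secreted serine protease, fell by 1.06 (adjusted p = 1.5e-06) with shCdk8-2 on day 8.

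Of the 13 receptors tested, 5 rose with shMed12-1, 4 rose and 1 fell with shMed12-2, 7 rose with shCdk8-2 on day 13, and 3 rose and 1 fell with shCdk8-1 on day 13. On day 8, 2 rose with shCdk8-2, and 2 rose and 4 fell with shCdk8-1. Itgb1, the beta 1 integrin shared by most laminin and collagen receptors, rose by 0.67 (adjusted p = 1.3e-07) with shMed12-2. Ddr1, a collagen-binding receptor kinase, rose by 0.72 (adjusted p = 4.7e-07) with shMed12-2. Itga5, part of the fibronectin receptor, rose by 0.69 (adjusted p = 6.0e-07), and Sdc4, a cell surface proteoglycan, by 0.81 (adjusted p = 8.8e-04, not called with slide as a blocking term at 0.11), with shMed12-1.

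Endoderm transcription factors, several of which drive primitive endoderm in the mouse embryo, had 3 or 4 of 8 members lower in each knockdown comparison. Of 8 tested, 4 fell with shCdk8-2 on day 8 (median -0.52), 3 fell and 1 rose with shCdk8-1 on day 8, 3 and 4 fell with shCdk8-1 and shCdk8-2 on day 13, and 3 and 4 fell with shMed12-1 and shMed12-2. With shCdk8-2 on day 8 Gata6 fell by 1.38, Foxa2 by 1.34, Sox7 by 1.28 and Sox17 by 0.81 (adjusted p = 1.9e-06, 3.3e-09, 9.4e-09 and 2.5e-04). In shCdk8-1 cells on day 8 the mean of Foxa2 was higher, at 2.12 against 1.77 in shNTC cells. The means of Gata6, Sox7 and Sox17 were below shNTC there. With shMed12-1, where the collagen IV genes and Sparc rose, Sox17 and Sox7 fell by 0.62 and 0.42 (adjusted p = 0.0015 and 0.0020). In shNTC cells 4 of the 8 were lower on day 13 than on day 8, with Gata6 down by 1.31.

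Markers of cell types were read in the same comparisons. Of 8 primitive endoderm markers, 6 of which are also in the list of endoderm factors, 6 fell with shCdk8-2 on day 8, 4 fell and 1 rose with shCdk8-1 on day 8, and 6 were lower in shNTC cells on day 13 than on day 8. Their summed Cy5 signal (log2) was 11.71 to 11.83 in shCdk8-1, 10.99 to 11.04 in shCdk8-2 and 11.93 to 12.04 in shNTC cells on day 8. It was 10.85 to 10.92 in shMed12-1, 10.68 to 10.80 in shMed12-2, 10.87 to 10.96 in shCdk8-1, 10.79 to 10.88 in shCdk8-2 and 11.16 to 11.24 in shNTC cells on day 13. The 12 fibroblast or feeder markers, all tested, summed to 16.75 to 16.76 in shMed12-1, 16.80 to 16.84 in shMed12-2, 16.14 to 16.27 in shCdk8-1, 16.18 to 16.24 in shCdk8-2 and 15.46 to 15.53 in shNTC cells on day 13. They summed to 14.08 to 14.51 in shCdk8-1, 14.07 to 14.22 in shCdk8-2 and 14.71 to 14.90 in shNTC cells on day 8. Tagln and Acta2, genes of the actin cytoskeleton that smooth muscle also expresses, made up most of that sum in each group. With shMed12-1 3 of 12 rose, with shMed12-2 3 rose and 1 fell, with each Cdk8 hairpin on day 13 2 rose, and on day 8 2 fell with each and 1 rose with shCdk8-1. Trophoblast markers, 6 tested, rose in 4 with shMed12-1 and summed to 13.08 to 13.24 there, against 12.10 to 12.77 in the other knockdown groups of day 13 and 12.47 to 12.50 in shNTC cells. Elf5, a defining trophoblast gene, was not well above background on any array.

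Parietal endoderm markers, 5 tested, fell in 1 with shCdk8-2 on day 8, where their sum was 10.43 to 10.57 against 10.83 to 11.09 in shNTC cells, and were called in both directions with shMed12-1 (1 higher, 2 lower). Visceral endoderm markers, 8 tested, were called in at most 2 in each knockdown comparison, and Ttr was not well above background on any array. Endothelial markers, 6 tested, were called in at most 2. Markers of ES cells, 7 tested, fell in 6 with shMed12-1 (median -0.96, or -0.57 after the refit) and in 2 with shCdk8-1 on day 8, both groups with an array that stood apart, and in 1 with shCdk8-1 on day 13. The part of any of these cell types in the member changes was not tested.

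The profile of the members was summarised as the mean of their standardized log2 ratios, which was lowest in shCdk8-1 cells on day 13 (-0.92 to -0.77) and highest in shNTC cells on day 8 (1.26 to 1.32). The 5 named genes most like it over the 24 arrays, by Pearson correlation, were P4ha2 (0.907), Dnttip2 (0.904), Phf11a (0.899), Hs3st1 (0.896) and Lonrf3 (0.893). The members were not uniform: Sparc had negative correlations with Nid2 (-0.568), Lama1 (-0.329) and Lamc1 (-0.213), while Nid2 correlated with Lamc1 at 0.806 and with Lama1 at 0.741. All of these are descriptions over arrays in 8 groups.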

How the data were processed

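RNA of the 24 samples was measured on 2-colour Agilent arrays. Per the file headers, the deposited scanner files hold median spot and background intensity in Cy3 and Cy5 and the log10 ratio (Cy5 to Cy3) that Feature Extraction 10.7.3.1 computed (10.7 per the submitters' processing notes). The authors' deposited table of log2 ratios, with column medians from -0.0049 to 0.12 and a slope of 1 on the scanner log ratios, has an unstated normalization and served as an alternative. The build used to design the probes was not used here.

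Background was corrected with normexp (offset 50), log2 ratios were normalized within arrays by loess with control spots at weight 0, and flagged spots were left out (137 to 273 an array). Probes were kept if Cy5 was well above background in each of the 3 arrays of some group (28316 of 41174), and 63 with missing values were dropped. The brightest probe stood for a gene. One limma fit (R 4.3.3, limma 3.58.1) gave 8 group means with 16 residual degrees of freedom, two-sided tests and Benjamini-Hochberg adjustment over 23147 genes, and was tested on simulated data. Probe accessions were matched to RefSeq symbols (22951 probes), of which 13742 genes were tested.

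The members, lists and markers were chosen with earlier results of these data known. The named genes were the members, up to 4 called genes of each list with the largest fold change in a knockdown comparison, and the 5 genes most like the members' mean profile. Some genes that this rule names are not reported here. Sox17 and Sox7 with shMed12-1 and Gata6 between days were named after their values were seen. Alternatives covered background, normalization, filters, probe choice, slide, replicate number, the arrays in the fit and leaving out arrays. The number of arrays limits the precision.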

Additional observations from a re-analysis of the deposited data

Results flagged for a closer look

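The differences flagged here are those in the effect of Cdk8 knockdown on a member between day 13 and day 8. Of these, 8 passed the limma test (Benjamini-Hochberg adjusted). Differences between hairpins, and between Cdk8 and Med12 knockdown, were also tested and are given above. For Sparc the effect was higher on day 13 by 0.8293 with both hairpins averaged (adjusted p = 5.1e-06), by 0.4756 for shCdk8-1 alone (adjusted p = 0.021) and by 1.1829 for shCdk8-2 alone (adjusted p = 2.1e-07). For Col4a2 it was higher by 0.5721 with both averaged (adjusted p = 0.0045), and the shCdk8-2 value alone was 0.8675 (adjusted p = 2.2e-04). Col4a1 gave 0.34 with both averaged (adjusted p = 0.046) and 0.8281 with shCdk8-2 (adjusted p = 4.4e-05), and Lamb1 gave 0.3722 with shCdk8-2 (adjusted p = 0.011). The second probe of Col4a1 did not pass for both hairpins averaged (0.26, adjusted p = 0.34), and the second Sparc probe did not pass for shCdk8-1 alone (0.45, adjusted p = 0.21). With slide as a block, 3 of the 8 no longer passed: Lamb1 with shCdk8-2 (adjusted p = 0.17), Col4a1 with both averaged (adjusted p = 0.15) and Sparc with shCdk8-1 (adjusted p = 0.38). All of these contrasts share the shNTC arrays of both days. Median centring left 0 of the 8 members called in each of the 3 contrasts.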

How the results depend on the processing

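Over 16 comparisons and 16 alternatives besides leaving out 1 array, 330 counts of called members, those without 1 array included, stayed within 1.5 times the reported count and 52 did not. Of 3056 values of single members, 2802 kept their side of the threshold, 110 passed it newly and 144 no longer passed. While called in either setting, 0 values changed sign. The 2802 include 99 values that changed sign while called in neither setting. The refitted background, alone and with slide as a block, was chosen after seeing the data.

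Median centring called 0 members for shCdk8-1 on day 8, 3 for shCdk8-2 on day 8, 0 for each Cdk8 hairpin on day 13, 2 for shMed12-2, 3 between days in shNTC cells and 2 in shCdk8-2 cells, 0 for the day contrast of the Cdk8 effect (both hairpins or either), and 3 and 0 between the Cdk8 hairpins on day 8 and day 13. With slide as a block the counts were 1 for shCdk8-1 on day 8, 1 for each Cdk8 hairpin on day 13, 0 for the shCdk8-1 day contrast and 3 between Cdk8 hairpins on day 8. Without both arrays that stood apart, shCdk8-1 and shCdk8-2 on day 13 had 5 and 4 members called. The refitted background gave the same 5 and 4, with 2 for the shCdk8-1 day contrast, 5 for Cdk8 against Med12 and 2 between Cdk8 hairpins on day 13. Refitted with slide as a block, the shCdk8-1 day contrast had 2 and Cdk8 against Med12 5. Quantile scaling gave 2 for shMed12-2, 3 between days in shCdk8-2 cells and 0 for the shCdk8-1 day contrast. Cy5 alone gave 2 for that contrast. With only the groups compared in the fit, it was 0, with 5 for Cdk8 against Med12 and 3 and 0 between Cdk8 hairpins on day 8 and day 13. The stricter filter gave 6 for Cdk8 against Med12 and 2 between Cdk8 hairpins on day 13, where the Feature Extraction log ratio and the authors' deposited table also gave 2. The cause of these changes was not tested.

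Leaving out 1 array gave 2 to 3 members called for shCdk8-1 and 4 to 6 for shCdk8-2 on day 8, 1 to 3 and 1 to 2 on day 13, 4 to 5 for shMed12-1 and 3 to 3 for shMed12-2. Between days it gave 7 to 7 in shCdk8-1, 3 to 6 in shCdk8-2 and 7 to 8 in shNTC cells. The day contrast had 2 to 3 with both hairpins, 0 to 1 with shCdk8-1 and 4 to 5 with shCdk8-2. Cdk8 against Med12 had 3 to 4, the Cdk8 hairpins 4 to 6 on day 8 and 1 to 2 on day 13, and the Med12 hairpins 4 to 4. The count of 1 for shCdk8-1 on day 13 came without its replicate 3 or shNTC replicate 2 or 3, that of 1 for shCdk8-2 without its replicate 1 or 2 or shNTC replicate 1, and that of 3 between days in shCdk8-2 cells without day 13 replicate 3, which also gave 2 between Cdk8 hairpins on day 13.

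Replicate numbers showed little sign of pairing the samples. Over 18 pairs of groups on a day, the same-numbered deviations correlated between -0.118 and 0.209, with 2 pairs over 0.1. This check covers same-numbered samples only, so it cannot exclude pairing. With the replicate number as a block, 3 and 5 members were called on day 8 for shCdk8-1 and shCdk8-2, 2 and 2 on day 13, 4 for each Med12 hairpin, and 7, 5 and 8 between days in shCdk8-1, shCdk8-2 and shNTC cells. The arrays' number limits what can be called, and Lama1's reference signal was dim.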
